A study of Mus musculus with 10 samples.

Results

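The 9 genes described here encode the fibrillins (Fbn1 and Fbn2), the latent TGF-beta binding proteins (Ltbp1, Ltbp2, Ltbp3 and Ltbp4) and the microfibril-associated proteins Mfap2, Mfap4 and Mfap5. They were chosen by gene symbol from the 28165 genes of the count table, and each passed the filter on low counts, among 15718 genes that did. The libraries were bulk mRNA sequencing of smooth muscle cells from the embryonic mouse aorta at embryonic day 15.5. There were 5 libraries of Eln+/+ cells and 5 of Eln-/- cells, and n = 5 per genotype throughout. All came from crosses of Eln(+/-) mice that carried an Acta2-GFP reporter, and no library was treated. The reporter is driven by Acta2, the smooth muscle actin gene, so the sort (GFP+, CD31-, DAPI-) takes any living cell with that promoter active that lacks the endothelial protein CD31. The labels do not give the Eln allele, the number of embryos per library or whether replicates were separate embryos, and a p-value here reflects the scatter among the sequenced libraries alone, part of which may be technical. In bulk RNA, fewer cells of a type and less RNA per cell cannot be told apart.

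Fibrillins are long, calcium-binding glycoproteins that assemble head to tail into microfibrils, the thin filaments on which elastin is deposited to form an elastic fibre. The LTBPs belong to the same protein superfamily. Ltbp1 and Ltbp3 bind latent TGF-beta and tether it to microfibrils, Ltbp4 binds it more weakly and also takes part in elastin assembly, and Ltbp2 does not bind it. Mfap2 and Mfap5, also called MAGP-1 and MAGP-2, are small glycoproteins bound to fibrillin, and Mfap4 is a fibrinogen-related protein found on elastic fibres. In the aorta, smooth muscle cells make this scaffold together with elastin, and inherited defects of FBN1 cause Marfan syndrome in humans.

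The promoters of 6 of the 9 genes were found by symbol in a RefSeq-derived table on GRCm38.p6. Sequences are shown for Mfap2 and Ltbp4, the members whose levels varied least and most between libraries, and for Fbn1, the main fibrillin of adult microfibrils. Each run is the 250 bases before the RefSeq start nearest the table's gene start, 5' to 3' on the gene's strand. The Fbn1 window lies wholly inside the counted gene span, which starts at 125507993 on the minus strand. Capitals mark the GC box letters GGGCGG on either strand (as CCGCCC on the other).
Fbn1, chr2:125506439-125506688, minus strand: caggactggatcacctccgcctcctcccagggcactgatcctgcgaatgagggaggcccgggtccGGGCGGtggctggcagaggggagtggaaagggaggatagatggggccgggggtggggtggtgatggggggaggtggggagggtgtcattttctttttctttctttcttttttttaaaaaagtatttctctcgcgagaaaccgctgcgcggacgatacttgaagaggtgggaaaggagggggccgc
Ltbp4, chr7:27337613-27337862, minus strand: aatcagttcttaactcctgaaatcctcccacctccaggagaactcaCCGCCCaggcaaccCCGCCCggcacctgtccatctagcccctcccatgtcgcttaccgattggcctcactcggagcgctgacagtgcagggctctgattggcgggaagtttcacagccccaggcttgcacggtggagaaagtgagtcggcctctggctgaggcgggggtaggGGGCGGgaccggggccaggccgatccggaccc
Mfap2, chr4:141010174-141010423, plus strand: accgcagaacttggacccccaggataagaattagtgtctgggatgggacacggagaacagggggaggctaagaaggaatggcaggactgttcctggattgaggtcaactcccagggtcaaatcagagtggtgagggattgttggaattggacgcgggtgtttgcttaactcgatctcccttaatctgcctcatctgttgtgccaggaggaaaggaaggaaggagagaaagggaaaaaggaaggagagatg
GGGCGG occurred 3 times in the Ltbp4 window, 1 time in that of Fbn1 and not in that of Mfap2. It was found in 3 of the 6 member windows and in 32.7% of 32817 windows of the same length. Neither TATAAA, in 12.4% of all windows, nor the CArG box, in 1.47%, was found in any of the 6. The GC content was 64.4% for Ltbp4, 59.2% for Fbn1 and 51.2% for Mfap2, against a median of 52.4% over all windows. Mfap2 and Ltbp1 have 2 listed starts each and Ltbp4 has 3, and the counts do not separate them.

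Total counts were 26951681 to 63866346 per library. Eln, the deleted gene, had 2409, 105866, 8603, 49878 and 31530 counts in Eln+/+ replicates 1 to 5. The Eln-/- replicates 1 to 5 had 36, 1, 0, 1 and 0 counts of Eln, as labelled. Eln+/+ replicate 1 and Eln-/- replicates 4 and 5 detected the smallest numbers of genes, 15089 to 15925, and the other 7 detected 18157 to 22951. The former also had the smallest total counts, 26951681 to 31366586, against 39646293 or more in the other 7. In those 3 libraries 2.53% to 2.90% of counts fell on genes whose longest transcript exceeds 5 kb, against 5.64% to 16.9% in the others, and the highest share was in Eln-/- replicate 1. The sorted cells carried smooth muscle transcripts: Acta2 was at 473 to 1742 CPM (the count scaled to library size with TMM factors) and Tagln, the actin-bundling protein transgelin, at 129 to 1452 CPM. Myh11, the smooth muscle myosin heavy chain and a marker of mature cells, was at 0.0377 CPM in Eln-/- replicate 5 and 119 CPM in Eln-/- replicate 1. Myocd was at 0 in 2 of 10 libraries and Smtn in 1, and Lmod1 fell to 0.0726 CPM in Eln-/- replicate 4. The 7 smooth muscle markers, mostly Acta2 and Tagln, summed to 686 to 1874 CPM in Eln+/+ libraries (median 1632). In Eln-/- libraries they summed to 1086 to 3000 CPM (median 2525). Endothelial Pecam1, which encodes CD31, was at 0 to 7.70 CPM, and the 6 endothelial markers, of which 2 passed the filter, summed to 0.860 to 44.4 CPM, mostly Tek (up to 37.8 CPM). The 5 leukocyte markers, of which 1 passed, summed to 0.0377 to 11.1 CPM, led by Lyz2 (up to 8.04 CPM), with Ptprc at 0 in 7 of 10 libraries. Red blood cell markers summed to 18862 CPM in Eln+/+ replicate 1 and 5138 CPM in Eln-/- replicate 4, against 22.3 to 1336 CPM in the other 8. Fibroblast markers were present too: 6 of 6 passed the filter, with 1 of them at 0 in Eln-/- replicates 4 and 5. Their summed level ran from 1197 to 4007 CPM over the Eln+/+ libraries and from 487 to 2655 CPM over the Eln-/- libraries. These cells also make fibrillin and the small microfibril proteins, and the part of fibroblast RNA in the values below was not tested.

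Transcripts of the 3 small microfibril proteins were far more abundant per transcript length than those of the fibrillins and LTBPs. Per kb of the longest coding transcript, the median level in Eln+/+ was 1095 CPM per kb for Mfap2, 676 for Mfap4 and 473 for Mfap5, against 9.78 for Fbn1, 5.85 for Ltbp1 and 5.09 for Fbn2. Medians for Ltbp3, Ltbp2 and Ltbp4 were 2.11, 0.892 and 0.716 CPM per kb. Mfap2 was above Mfap4, Mfap5 above Fbn1 and Fbn2 above Ltbp3 in 5 of 5 Eln+/+ libraries. The other neighbours in that order changed places between libraries: Mfap4 was above Mfap5 in 4 of 5, Fbn1 above Ltbp1 in 3, Ltbp1 above Fbn2 in 4, Ltbp3 above Ltbp2 in 3 and Ltbp2 above Ltbp4 in 2. In Eln-/- the same 3 Mfap genes led, at medians of 876, 616 and 386 CPM per kb. Ltbp1 came next at 9.15 CPM per kb and was above Fbn1 (3.31) in 5 of 5 Eln-/- libraries. In 9 of 10 libraries the Mfap genes made up 96.9% to 99.7% of the summed CPM per kb of the 9 genes, and in Eln-/- replicate 1 they made up 92.9%. The share of counts on transcripts over 5 kb ran from 2.53% to 16.9% between libraries, and its part in this gap was not tested. Levels per kb also depend on the length used. Per kb of merged exons the Eln+/+ means were 261 CPM for Mfap5, 8.48 for Fbn1 and 5.62 for Ltbp1. Per kb of transcript these means were 622, 8.59 and 9.00.

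**Figure D1:**
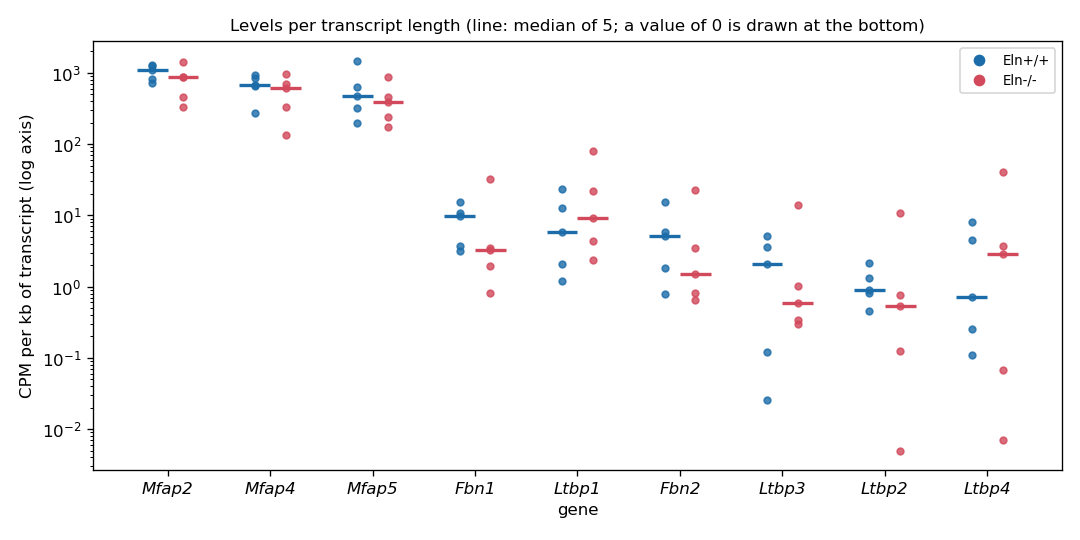
Level of each gene in CPM per kb of its longest coding transcript (log axis) for 5 Eln+/+ (blue) and 5 Eln-/- (red) libraries, ordered by the Eln+/+ median. Each point is 1 library and each line a median; the medians of Mfap2, Mfap4 and Mfap5 lie between 386 and 1095, and those of the other 6 genes between 0.536 and 9.78.

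The comparison asks how gene expression in these cells differs without elastin. For the microfibril genes, 0 of 9 were called different between genotypes with edgeR's quasi-likelihood test at an adjusted p of 0.05, as were 0% of the 15718 genes tested. Eln, the deleted gene, was not called either, at a log2 fold change of -12.2 (SE 1.64, edgeR adjusted p = 0.152). The lack of a call therefore does not show that a gene was unchanged. None of the 9 had an unadjusted p under 0.05, against 0.515% of genes tested. None was called by DESeq2, which gave no p for Ltbp2 and called 0.0382% of genes, by limma-voom (0.0127%) or by limma-voom with sample quality weights (0.0445%). In none of the 9 did the Eln-/- libraries lie apart from the Eln+/+ libraries, as they did for 0.305% of genes tested (0.14% higher and 0.165% lower in Eln-/-). None was called without Eln-/- replicate 1 (0.00627% of genes), without that library and Eln+/+ replicate 2 (0.00665%) or with offsets by transcript length (0.00636%). Log2 fold changes (Eln-/- over Eln+/+) were positive for the 4 LTBPs and negative for the other 5, with a median of -0.01 over the 9 and 0.02 over all genes. The intervals were wide: the 95% interval of the Fbn1 difference ran from 0.245-fold to 3.89-fold.

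**Figure D2:**
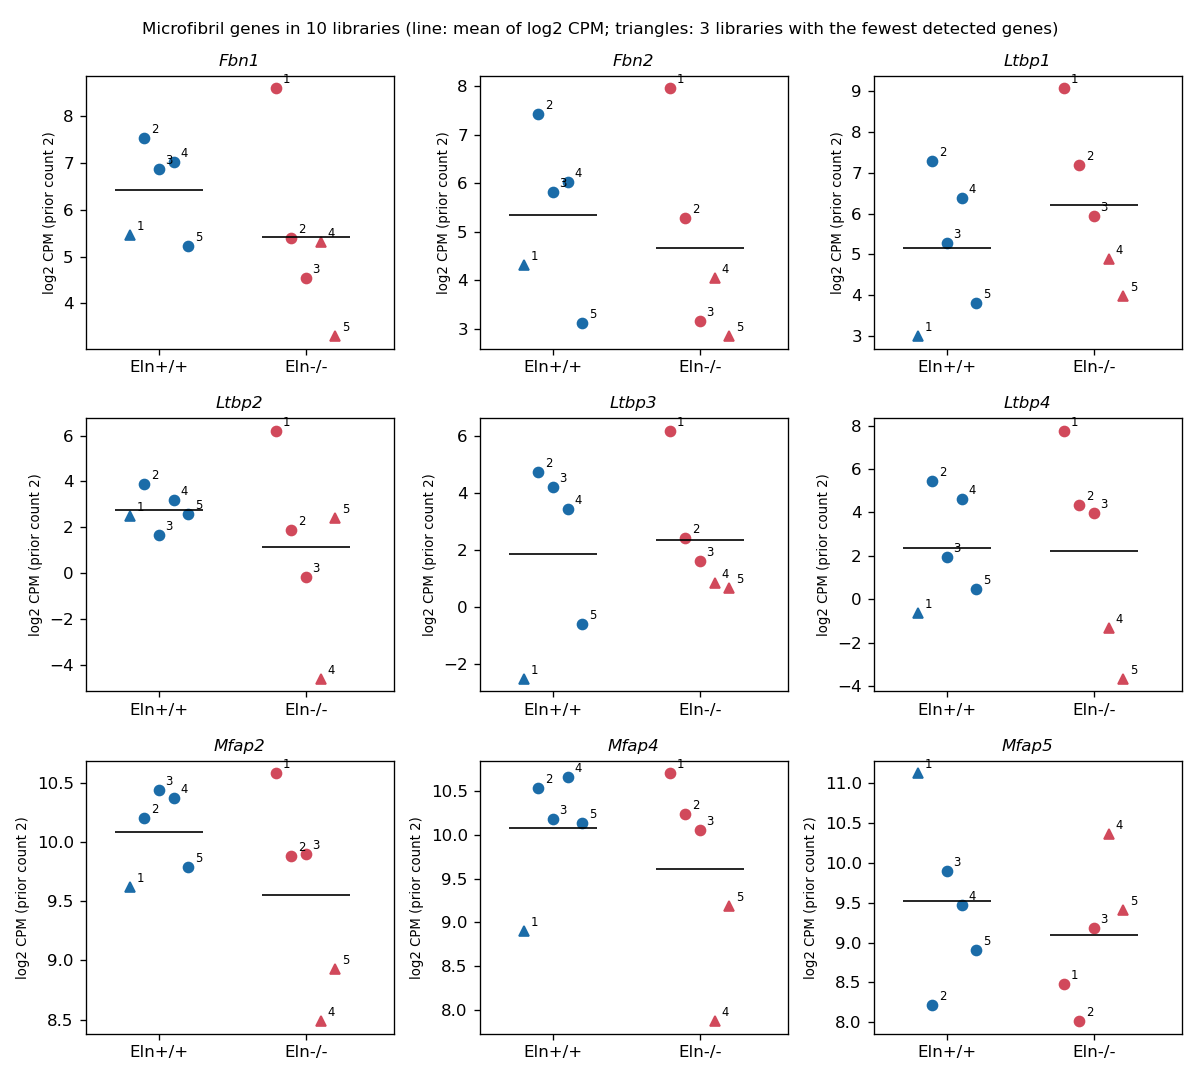
log2 CPM (prior count 2) of each gene in 5 Eln+/+ and 5 Eln-/- libraries, numbered by replicate, with the mean as a line and triangles for the 3 libraries with the fewest detected genes. In the fibrillins and LTBPs the highest point is Eln-/- replicate 1, and no gene separates the genotypes.

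Fbn1, on chromosome 2 (125300594 to 125507993, minus strand, mm10), was at 43.8, 185, 117, 131 and 37.5 CPM in Eln+/+ replicates 1 to 5. The Eln-/- libraries, in the same order, were at 387, 42.0, 23.2, 39.6 and 9.76 CPM. Thus 1 Eln-/- library was above all Eln+/+ libraries, while the other 4 were below 4 of the 5 Eln+/+ libraries. The means were 103 ± 62.2 CPM and 100 ± 161 CPM (SD, n = 5 each), with a log2 fold change of -0.04 (SE 0.91, edgeR adjusted p = 1.00). Without Eln-/- replicate 1 the log2 fold change of Fbn1 was -1.85 (SE 0.64), with an unadjusted p of 0.0159 and an edgeR adjusted p of 1.00, when 1.07% of 15951 genes had an unadjusted p under 0.05. Exons of Gm9913 on the other strand cover 2442 bases (20.1%) of the Fbn1 exons. Gm9913 itself was at 0 to 1.70 CPM. Because the strand setting of the counting is unknown, reads in that overlap cannot be assigned with certainty.

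Fbn2, the fibrillin made mainly before birth, lies on chromosome 18 (58008623 to 58210487, minus strand) and varied much as Fbn1 did. It was at 19.97, 171, 56.2, 65.5 and 8.73 CPM in Eln+/+ replicates 1 to 5 and at 248, 38.8, 8.89, 16.5 and 7.16 CPM in Eln-/- replicates 1 to 5. For Fbn2 the log2 fold change was -0.01 (SE 1.05, edgeR adjusted p = 1.00) and -1.86 without Eln-/- replicate 1. Set against Fbn1 within each library, which removes library scaling, Fbn2 was the lower per kb in 8 of 10 libraries and about level with Fbn1 in Eln+/+ replicate 2 (ratio 1.00) and Eln-/- replicate 2 (1.00). The mean log2 ratio of counts, Fbn2 over Fbn1, was -1.08 ± 0.70 in Eln+/+ and -0.77 ± 0.54 in Eln-/- (SD, n = 5 each). The difference of 0.31 (SE 0.40) did not pass a two-sided exact permutation test (p = 0.452, adjusted p = 0.810 over 3 ratios). Within Eln+/+ alone the ratio ran from -2.10 to -0.11.

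Ltbp1 (chromosome 17, 75005568 to 75392512, plus strand) had the smallest p of the 9 genes. It was at 7.94, 156, 39.0, 83.8 and 14.0 CPM in Eln+/+ replicates 1 to 5 and at 536, 147, 61.0, 29.6 and 15.7 CPM in Eln-/- replicates 1 to 5. The other 4 Eln-/- libraries lay inside the Eln+/+ range, and Eln-/- replicate 1 was above it. The log2 fold change of Ltbp1 was 1.39 (SE 1.03, unadjusted p = 0.1997, edgeR adjusted p = 1.00), 0.070 without Eln-/- replicate 1 and 2.13 without Eln+/+ replicate 2 (unadjusted p = 0.0808). Its sign was positive in all 21 alternatives run. When each library was given offsets by transcript length, an alternative chosen after seeing the data, the log2 fold change of Ltbp1 was 1.28 (SE 0.41) with an unadjusted p of 0.00982 and an edgeR adjusted p of 1.00. Under those offsets 1.73% of genes had an unadjusted p under 0.05.

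Ltbp3, which like Ltbp1 carries latent TGF-beta, lies on chromosome 19 (5740904 to 5758532, plus strand). It was at 0.132, 26.9, 18.8, 10.9 and 0.624 CPM in Eln+/+ replicates 1 to 5 and at 73.4, 5.29, 3.03, 1.74 and 1.55 CPM in Eln-/- replicates 1 to 5. Apart from replicate 1, the Eln-/- libraries fell inside the Eln+/+ range. For Ltbp3 the log2 fold change was 0.57 (SE 1.40, edgeR adjusted p = 1.00), and -1.99 without Eln-/- replicate 1. Ltbp1 had the higher count in every library, by a mean log2 ratio of 3.29 ± 1.73 in Eln+/+ and 3.87 ± 0.77 in Eln-/- (SD, n = 5 each; difference 0.58, SE 0.85, exact permutation p = 0.540, adjusted p = 0.810 over 3 ratios). Per kb this was a geometric mean of 7.59-fold in Eln+/+ and 11.3-fold in Eln-/-. The log2 ratio in Eln+/+ replicate 1 (5.52) rests on 2 counts of Ltbp3. Without that library the difference in mean log2 ratio was 1.14, and without Eln+/+ replicate 3 it was 0.020.

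Ltbp4 (chromosome 7, 27305136 to 27337692, minus strand) had the highest fold change and the widest spread of the 9. It was at 0.595, 44.0, 3.86, 24.5 and 1.36 CPM in Eln+/+ replicates 1 to 5 and at 216, 20.2, 15.6, 0.363 and 0.0377 CPM in Eln-/- replicates 1 to 5. The lowest Eln-/- value rests on 1 count and the highest on 15794. The log2 fold change of Ltbp4 was 1.76 (SE 1.68, edgeR adjusted p = 1.00), with a 95% interval from 0.267-fold to 43.1-fold, and was -0.72 without Eln-/- replicate 1. Across all 10 libraries the SD of its log2 CPM was 3.36, higher than that of 92.8% of the 10885 genes whose average log2 CPM was 2 or more.

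Ltbp2 (chromosome 12, 84783212 to 84876532, minus strand) was sparse, at 5.55, 14.7, 3.13, 9.09 and 6.04 CPM in Eln+/+ replicates 1 to 5. The Eln-/- libraries, in that order, were at 74.0, 3.63, 0.852, 0 and 5.24 CPM. The 0 allows up to 3 counts, or 0.218 CPM, at the depth of Eln-/- replicate 4, which covers counting error only. Its log2 fold change of 1.12 (SE 1.40, edgeR adjusted p = 1.00) was -1.67 without Eln-/- replicate 1. Exons of D030025P21Rik on the other strand overlap 764 bases (9.34%) of the Ltbp2 exons. D030025P21Rik was at 5.84 CPM in Eln-/- replicate 3, above Ltbp2 there, so that library's Ltbp2 value is uncertain.

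Transcripts of the small microfibril proteins varied less. Mfap2 (chromosome 4, 141010418 to 141015984, plus strand) was at 786, 1175, 1388, 1323 and 886 CPM in Eln+/+ replicates 1 to 5 and at 1530, 940, 953, 359 and 487 CPM in Eln-/- replicates 1 to 5. The 3 lowest values were those of the 3 libraries with the fewest detected genes, Eln-/- replicates 4 and 5 and then Eln+/+ replicate 1. The highest was in Eln-/- replicate 1, so the Eln-/- libraries spanned the whole Eln+/+ range. The means were 1112 ± 266 and 854 ± 462 CPM (SD, n = 5 each), with a log2 fold change of Mfap2 of -0.38 (SE 0.51, edgeR adjusted p = 1.00). Its 95% interval, from 0.357-fold to 1.65-fold, was the narrowest of the 9. The SD of its log2 CPM over 10 libraries, 0.63, was at or above that of 13.7% of the genes whose average log2 CPM was 2 or more.

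Mfap4 (chromosome 11, 61485431 to 61488900, plus strand) followed Mfap2 from library to library. It was at 477, 1481, 1164, 1618 and 1128 CPM in Eln+/+ replicates 1 to 5 and at 1669, 1209, 1061, 234 and 581 CPM in Eln-/- replicates 1 to 5. The 3 lowest values were those of the 3 libraries with the fewest detected genes. For Mfap4 the log2 fold change was -0.30 (SE 0.59, edgeR adjusted p = 1.00), with a 95% interval from 0.331-fold to 1.98-fold. Exons of Mapk7 on the other strand overlap 89 bases of Mfap4.

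Mfap5 (chromosome 6, 122505845 to 122529290, plus strand) had its 2 highest values where Mfap2 and Mfap4 were low. It was at 2233, 298, 956, 712 and 482 CPM in Eln+/+ replicates 1 to 5 and at 358, 259, 582, 1312 and 682 CPM in Eln-/- replicates 1 to 5. Its highest value in each genotype came from a library with few detected genes, Eln+/+ replicate 1 and Eln-/- replicate 4. These 2 libraries also held the most red blood cell RNA (18862 and 5138 CPM) and the most counts on transcripts up to 1 kb (51.4% and 54.6%, against 8.64% to 33.6%). The part of either in the Mfap5 values was not tested. The means were 936 ± 766 and 639 ± 413 CPM (SD, n = 5 each), with a log2 fold change of Mfap5 of -0.55 (SE 0.65, edgeR adjusted p = 1.00) that was 0.085 without Eln+/+ replicate 1.

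**Figure D3:**
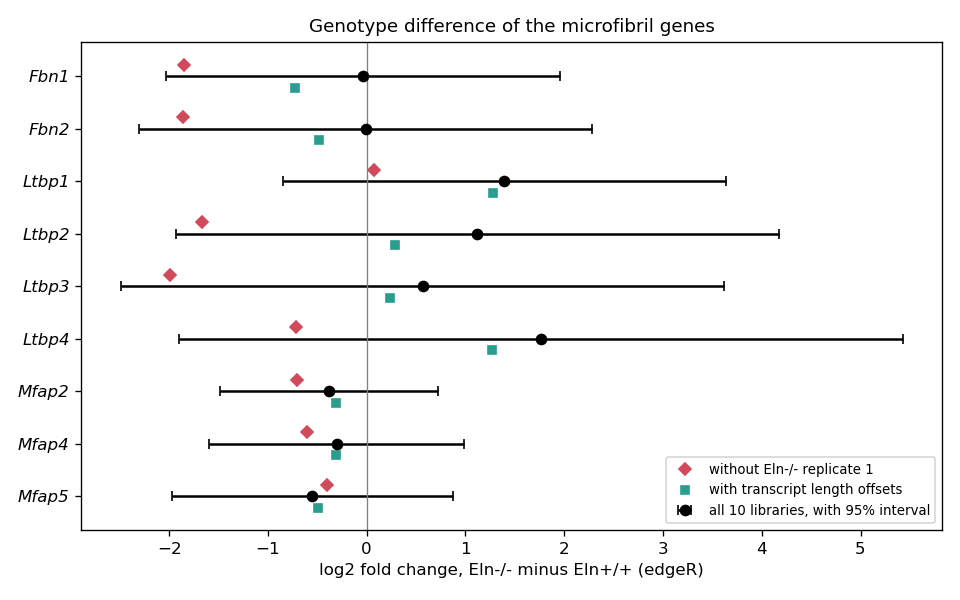
log2 fold change of each gene, Eln-/- minus Eln+/+, from edgeR with all 10 libraries (black, bars are 95% intervals), without Eln-/- replicate 1 (red) and with offsets by transcript length (green). Each black interval includes 0, and without Eln-/- replicate 1 the values of Ltbp2, Ltbp3 and Ltbp4 lie below 0.

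The 9 genes differed more between libraries of a genotype than between genotypes, and the libraries at the extremes were the same for most of them. In Eln-/- replicate 1, Fbn1, Fbn2, Ltbp1, Ltbp2, Ltbp3 and Ltbp4 were at 3.57 to 6.92 log2 units above the mean of the other 4 Eln-/- libraries. Among 2529 genes with transcripts over 5 kb the median of that difference was 2.88. The values of Ltbp2 (6.33) and Ltbp4 (6.92) rest partly on Eln-/- libraries at or near 0 counts: without replicate 4 Ltbp2 was at 4.84, and without replicates 4 and 5 Ltbp4 was at 3.60. For Mfap2 and Mfap4 the same difference was 1.28 and 1.37, and for Mfap5 -0.76, where the median of 5977 genes with transcripts up to 2 kb was -0.77. In Eln+/+ replicate 2, the highest Eln+/+ library for all 6 fibrillin and LTBP genes, the differences from the other 4 were 1.38 to 3.86. Among genes with transcripts over 5 kb these differences were at percentiles 35.6 for Fbn1, 36.0 for Ltbp2, 67.1 for Fbn2 and 68.2 for Ltbp1. Those of Ltbp3 and Ltbp4 were at 84.9 and 88.1. Several other measures were high in these 2 libraries. The largest total counts, 56371424 and 63866346, were those of Eln-/- replicate 1 and Eln+/+ replicate 2. These libraries had the most detected genes (22951 and 21864) and the highest shares of counts on transcripts over 5 kb (16.9% and 13.5%). They also had the highest sums of 7 immediate early genes such as Fos and Egr1, which cells switch on within minutes of a stimulus (16618 and 6558 CPM, against 355 to 2698 CPM), and of mesothelial markers (107 and 160 CPM, against 8.07 to 73.0 CPM). Cardiomyocyte markers were highest in Eln+/+ replicate 2 (541 CPM) but were at 77.4 CPM in Eln-/- replicate 1. The part of these in the members' values was not tested.

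**Figure D4:**
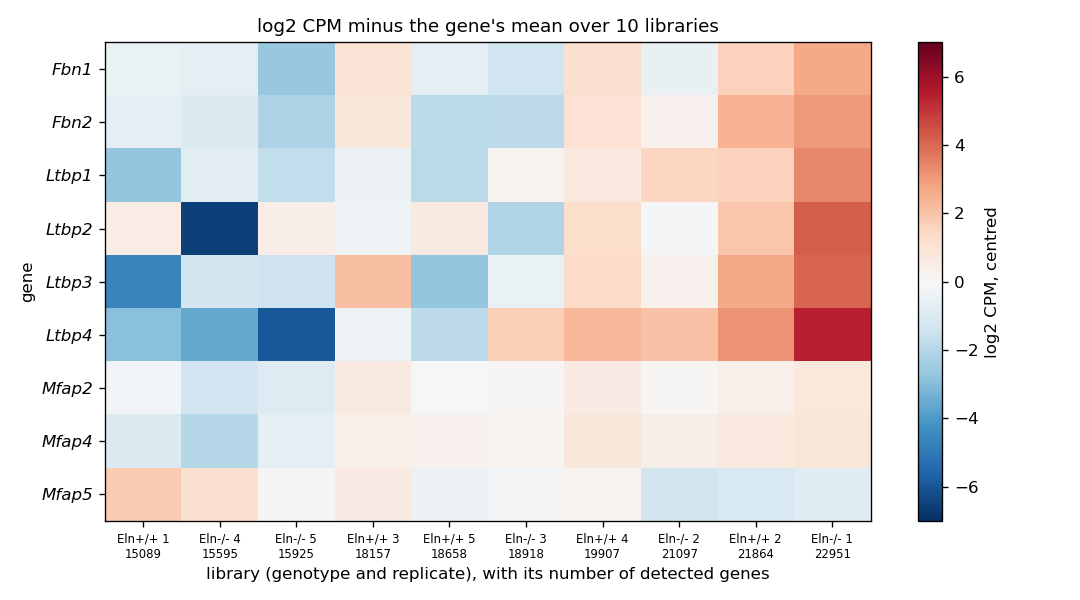
log2 CPM of each gene minus its own mean over 10 libraries (colour), with libraries ordered from left to right by the number of detected genes given under each. The fibrillins and LTBPs are mostly blue in the 3 libraries at the left and reddest in Eln-/- replicate 1 at the right, and Mfap2 and Mfap4 vary less.

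In the 3 libraries with the fewest detected genes, 8 of the 9 transcripts were lower on average. Their mean log2 CPM minus that of the other 7 was -1.77 for Fbn1, -1.80 for Fbn2, -2.47 for Ltbp1, -2.66 for Ltbp2, -3.50 for Ltbp3 and -5.96 for Ltbp4. The Ltbp2 difference rests on the 0 in Eln-/- replicate 4 and was -0.31 without that library. The corresponding median for genes with transcripts over 5 kb was -2.17, so only Ltbp4, at the percentile 5.69 of that length class, was near its edge. The difference was -1.15 for Mfap2, -1.71 for Mfap4 and 1.41 for Mfap5, where the median of genes with transcripts up to 2 kb was 0.53. These are descriptions of libraries and were given no test.

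The ratio of Mfap5 to Mfap2, both encoding small fibrillin-binding glycoproteins, differed more between libraries than between genotypes. Its log2 value (counts) was 0.49 to 1.87 in Eln+/+ replicate 1 and Eln-/- replicates 4 and 5, which detected the fewest genes, and -2.09 to -0.54 in the other 7. These ranges did not overlap. Mfap2 alone separated the same libraries, at no more than 786 CPM in the 3 and no less than 886 CPM in the 7. So did Mfap4, at no more than 581 and no less than 1061 CPM. These libraries differed over many genes, and how many other gene pairs separate them was not counted. By genotype the mean log2 ratios of Mfap5 to Mfap2 were -0.56 ± 1.27 in Eln+/+ and -0.46 ± 1.66 in Eln-/- (SD, n = 5 each). The difference of 0.095 (SE 0.94) did not pass the exact permutation test (p = 0.881, adjusted p = 0.881 over 3 ratios, smallest possible p = 0.00794). With the 7 other libraries alone the difference was -0.48. Summed fibroblast markers were 487 to 1197 CPM in those 3 libraries and 1482 to 4007 CPM in the rest. An rRNA gene model took 5.52% to 5.99% of counts in those 3 and 0.225% to 2.96% in the rest, and red blood cell markers were highest in 2 of the 3. The part of each in the ratio was not tested.

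**Figure D5:**
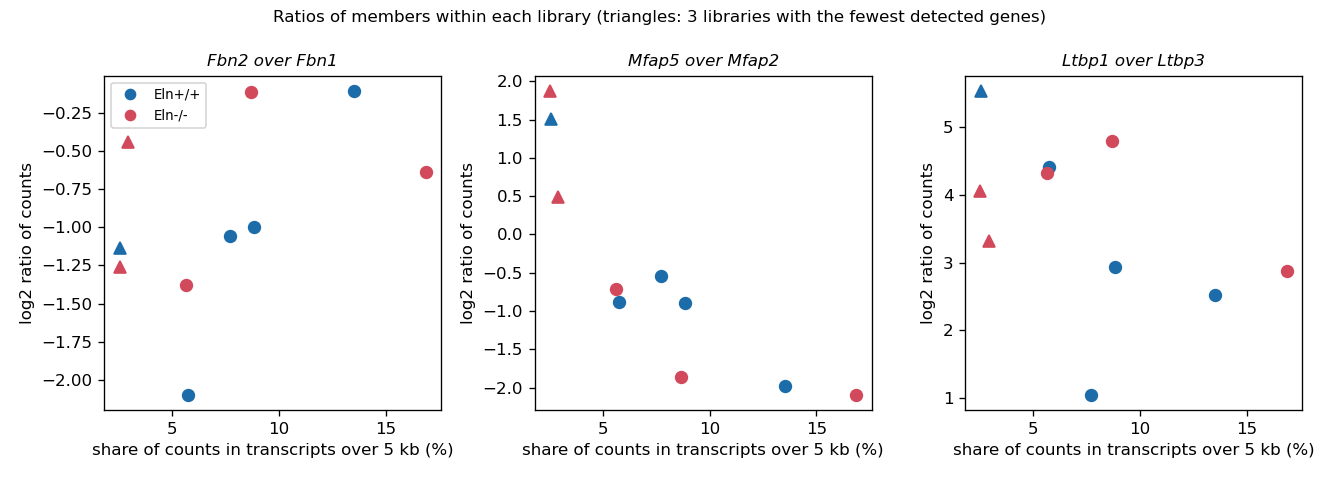
log2 ratio of counts of Fbn2 over Fbn1, Mfap5 over Mfap2 and Ltbp1 over Ltbp3 in each library against the percent of the library's counts on genes with transcripts over 5 kb (blue Eln+/+, red Eln-/-, triangles the 3 libraries with the fewest detected genes). The Mfap5 to Mfap2 ratio is 0.49 to 1.87 in the triangles and at most -0.54 elsewhere, while the other ratios show no such separation. How many gene pairs outside these 3 ratios separate the same libraries was not counted.

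Likeness of pattern was measured as the root-mean-square difference in log2 CPM over the 10 libraries after centring each gene on its mean. Among the 9 genes the closest pair was Mfap2 with Mfap4 (0.39), followed by Fbn1 with Fbn2 (0.58), and the farthest was Ltbp4 with Mfap5 (4.01). Over the 10884 other genes compared, Fbn2 ranked 19 in likeness to Fbn1, and Fbn1 ranked 8 in likeness to Fbn2. Mfap4 ranked only 70 in likeness to Mfap2, and Mfap2 ranked 91 in likeness to Mfap4. The measure is smaller for genes that vary little, such as these 2 (SD of log2 CPM 0.63 and 0.87). Nfib (0.41) was among the genes nearest to Fbn1, and those nearest to Fbn2 were Scaf8 (0.35) and Eif3a (0.47). For Ltbp1 they were Creb3l2 (0.52) and Actn1 (0.63), for Ltbp2 Smarca4 (0.81) and Gpatch8 (0.86), for Ltbp3 Rin2 (0.84) and Sulf1 (0.85), and for Ltbp4 Entpd1 (0.98) and Kif20a (1.03). Mfap2 was nearest to Gm9892 and Tmem234 (0.19 each), Mfap4 to Cd99l2 (0.20) and Ap2m1-ps (0.20), and Mfap5 to Lamtor2 (0.28) and Med6 (0.31). Mfap2, the member nearest to Mfap5, was only at rank 3669 for it.

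The partners of microfibrils gave no call either: 0 higher and 0 lower among the members tested of each of 5 lists. Elastic fibre assembly partners had 17 of 19 genes tested, with positive log2 fold changes in 12 and a median of 0.38, against 51.5% positive and a median of 0.02 over all genes. Fn1, the fibronectin on which fibrillin assembly depends, averaged 98.4 ± 80.7 CPM in Eln+/+ cells and 239 ± 442 in Eln-/- cells. Hspg2, the basement membrane proteoglycan perlecan, was at 4.65 ± 5.05 and 14.0 ± 28.8 CPM. For both, the SD in Eln-/- exceeded the mean, so these means do not describe a typical Eln-/- library. Fbln1, a fibulin of elastic fibres, averaged 209 ± 132 CPM in Eln+/+ cells and 119 ± 102 in Eln-/- cells. The list's single gene with an unadjusted p under 0.05, and its single gene without overlap between genotypes, was Eln.

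Enzymes that process fibrillin and the ADAMTS family had 15 of 19 genes tested, 8 positive and 7 negative, with a median of 0.07. The secreted ADAMTS-like protein Adamtsl1 averaged 4.69 ± 3.55 CPM in Eln+/+ cells and 12.7 ± 14.96 in Eln-/- cells, and its relative Adamtsl5 at 10.9 ± 4.61 and 6.53 ± 4.06 CPM. The protease Adamts6 was at 1.10 ± 1.82 and 2.85 ± 3.72 CPM. The Eln-/- SDs of Adamtsl1 and Adamts6 exceeded their means. Growth factors that fibrillins or LTBPs hold had 11 of 13 genes tested, 5 positive and 6 negative, with a median of -0.01. The 3 with the smallest p, Mstn, Bmp2 and Bmp7, were all below 3 CPM on average in both genotypes. The log2 fold change of the ligand Tgfb1 was 0.62 (SE 1.14), that of Tgfb2 0.35 (SE 0.88) and that of Tgfb3 -0.23 (SE 1.18).

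Activators of latent TGF-beta and fibrillin receptors had 14 of 17 genes tested, 9 positive and 5 negative, with a median of 0.24. Nrros, which anchors latent TGF-beta on myeloid cells, averaged 0.597 ± 1.12 CPM in Eln+/+ cells and 3.56 ± 5.84 in Eln-/- cells. Thbs1, an activator of TGF-beta, was at 19.9 ± 22.3 and 54.4 ± 110 CPM, and the integrin subunit Itga8 at 31.3 ± 36.4 and 74.3 ± 122 CPM. For Nrros, Thbs1 and Itga8 the SD exceeded the mean in each genotype, so these means do not describe a typical library. TGF-beta receptors, effectors and targets had 17 of 17 genes tested, 9 positive and 8 negative, with a median of 0.10. Smad7, the inhibitory SMAD that TGF-beta induces, averaged 7.46 ± 5.89 CPM in Eln+/+ cells and 18.1 ± 7.79 in Eln-/- cells (SD, n = 5 each). The log2 fold change of Smad7 was 1.27 (SE 0.67, unadjusted p = 0.0826, edgeR adjusted p = 1.00). Ccn2, a matricellular target of TGF-beta, was at 30.4 ± 22.6 and 78.5 ± 71.1 CPM.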

How the data were processed

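The authors deposited 1 table of estimated counts per gene for 28165 genes, without scaling. Column names gave each library. Per the submitters' processing notes STAR, DESeq2 and build mm10 were used, with no versions, and the sources used here do not name the counting program, annotation or strand setting. Of the values in a library 23.5% to 48.8% were not whole (tolerance 1e-06), and estimated counts were rounded. Gene spans, with the end 1 base before the table's stop, were the same as those of GENCODE mouse release 21 (GRCm38) for 27046 genes (96.0%), which gave exons and transcript lengths.

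Genes were kept by filterByExpr (15718), libraries were scaled by TMM factors, and genotypes were compared with edgeR 4.0.16 (quasi-likelihood, two-sided, Benjamini-Hochberg, threshold 0.05) in R 4.3.3. An SE is the log2 fold change divided by the square root of F. log2 CPM used a prior count of 2. DESeq2 1.42.0 and limma 3.58.1 were alternatives. The fit was tested on simulated data. The biological coefficient of variation was 1.16. A two-sided exact permutation test compared 3 ratios.

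Named genes are Eln, the 9 genes, up to 3 per list by p, 2 nearest in pattern per gene, and 6 markers, with a few that the rule names not reported here. Ptprc, Tek, Lyz2, Fos, Egr1, Tgfb1, Tgfb2, Tgfb3 and the genes that overlap members were named outside that rule, with their values seen, and the immediate early list (Fos, Fosb, Jun, Junb, Egr1, Ier2 and Atf3) was added after seeing the data. The genes, lists and part of the alternatives were chosen with earlier results of these data known.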

Additional observations from a re-analysis of the deposited data

Results flagged for a closer look

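In 7 of the 20 gene and genotype groups tested (the 9 genes and Eln), 1 library stood so far from the rest that its gap to the nearest library exceeded 0.71 of the group's whole range, Dixon's 95% limit for 5 samples. Chance flags about 1 in 20 groups of normally distributed values, a rate that does not hold for CPM as skewed as these, and all 7 came from the same library, Eln-/- replicate 1. On the log2 CPM scale none of the 20 groups passed that limit (0.30 to 0.68 of the range for these 7). It was at 387 CPM of Fbn1 against at most 42.0 CPM in the other Eln-/- libraries, at 248 against 38.8 CPM of Fbn2, and at 536 against 147 CPM of Ltbp1. It was at 74.0 against 5.24 CPM of Ltbp2, at 73.4 against 5.29 CPM of Ltbp3 and at 216 against 20.2 CPM of Ltbp4. Eln itself was at 0.493 CPM there (36 counts) against at most 0.0726 CPM. No Mfap gene was so marked in either genotype. That library also had the most detected genes (22951), the most counts on genes with transcripts over 5 kb (16.9%) and the highest immediate early sum (16618 CPM), and the part of these was not tested.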

How the results depend on the processing

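None of the 9 genes was called in any of the 21 alternatives (adjusted p 0.77 to 1, with no p for Ltbp2 from DESeq2). Ltbp1 stayed positive, and Mfap2 and Mfap4 negative, in all 21, but these reuse the same libraries. The log2 fold changes ran from -0.70 to -0.040 for Mfap2 and from -0.61 to -0.016 for Mfap4. The values of -0.040 (SE 0.29) and -0.016 (SE 0.28) arose when Eln+/+ replicate 1 and Eln-/- replicates 4 and 5 were dropped together. Genes called over the whole table numbered 6 with DESeq2, 2 with limma-voom, 7 with sample quality weights, 1 without Eln+/+ replicate 2 and Eln-/- replicate 1, 1 with length offsets, and 0 to 1 when 1 library was left out (Eln, without Eln-/- replicate 1). Leaving out 1 library gave log2 fold changes of -1.85 to 0.29 for Fbn1, -1.86 to 0.77 for Fbn2, 0.070 to 2.13 for Ltbp1, -1.67 to 1.501 for Ltbp2, -1.99 to 1.16 for Ltbp3, -0.72 to 2.74 for Ltbp4 and -0.99 to 0.085 for Mfap5, and a difference of -0.49 to 0.61 in the log2 ratio of Mfap5 over Mfap2. Signs also turned for Fbn1 with library totals only (0.00050) and for Fbn2 with DESeq2 size factors (0.011) or DESeq2 (0.011), all near 0. For Ltbp2 they turned with limma-voom (-1.52) and quality weights (-1.27), and for Ltbp3 with quality weights (-0.63). Leaving out Eln+/+ replicate 1 and Eln-/- replicates 4 and 5 together, the values were 0.38 for Fbn1, 0.41 for Fbn2 and -0.48 for the Mfap5 ratio. Without these and Eln-/- replicate 1, chosen after seeing the data, they were -1.86 for Ltbp2, -1.77 for Ltbp3, -0.045 for Ltbp4 and -0.21 for the Mfap5 ratio. Without Eln+/+ replicate 2 and Eln-/- replicate 1 they were -1.29 for Ltbp2 and -1.39 for Ltbp3. The cause was not tested. Same-numbered libraries did not deviate together (correlations -0.56 to 0.51 over genes, over 0.1 in 2 of 5 pairs, and 2 of 10 libraries were closest to their own number). With the replicate number as a block 0 genes were called, and the log2 fold changes were -1.41 for Ltbp2, -0.80 for Ltbp3 and -1.02 for Ltbp4.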

Other observations

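Summed over the 9 genes, the microfibril transcripts made up 2564 to 3978 CPM in Eln+/+ libraries and 1789 to 5094 CPM in Eln-/- libraries. Within the 3 Mfap genes, Mfap5 held 59.5% of the summed CPM per kb in Eln+/+ replicate 1. Its share was 64.9% and 36.4% in replicates 4 and 5 of Eln-/-. It held 9.03% to 24.4% in the other 7 libraries, of both genotypes. Without Eln-/- replicate 1, log2 fold changes were negative for 8 of the 9 genes with a median of -0.72. Over all 15951 genes then tested the median was -0.13, with 6986 positive. Long transcripts, such as those of the fibrillins and LTBPs, were high in that library. For genes with transcripts over 5 kb its median difference from the other 4 Eln-/- libraries was 2.88 log2 units. The shift of genes of like length on leaving it out was not computed.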
